A study of Mus musculus with 6 samples.

Results

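The Hox cluster genes encode homeodomain transcription factors, and 37 of the 19938 genes measured under a single symbol on these mouse arrays belong to them. A gene was a member where its probe set carried no other symbol and that symbol was Hoxa, Hoxb, Hoxc or Hoxd followed by digits only. Where a gene had more than 1 such probe set, that of the highest mean signal was kept. This gave 10 Hoxa, 9 Hoxb, 9 Hoxc and 9 Hoxd genes, out of 39 cluster genes in the RefSeq gene table. The other cluster genes were not analysed here.

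The Hox genes of mammals stand side by side in clusters on different chromosomes, and genes at the same position in different clusters are called a paralog group. Low-numbered groups are expressed toward the head of the embryo and high-numbered ones toward the tail, following their order along the chromosome. Hox proteins bind DNA together with homeodomain partners of the TALE class (Meis, Pbx and Pknox proteins); trithorax and MLL complexes keep the clusters active and polycomb complexes keep them silent. In blood, genes of the Hoxa and Hoxb clusters are active in stem cells and early progenitors and are switched off as cells mature. Hoxa9 with Meis1 drives acute leukemias with MLL fusions, and enforced Hoxb4 expands stem cells.

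RNA was profiled on 6 Affymetrix arrays, 2 biological replicates for each of 3 retroviral constructs. The BCR-ABL-Blk cells carried BCR-ABL, Blk and GFP, the BCR-ABL cells carried BCR-ABL and GFP, and the vector cells carried GFP alone. BCR-ABL is the fusion kinase that drives chronic myeloid leukemia. Blk, a kinase of the Src family, is best known in B cells. In all 3 groups C57BL/6 marrow came from donors treated with 5-fluorouracil, was infected with the virus and was transplanted into C57BL/6 recipients. The labels give the mice as 8 weeks old with a WT genotype. After 14 days the GFP+ Lin- c-Kit+ Sca-1+ (LSK) marrow cells were sorted, which the labels call leukemic stem cells in the BCR-ABL-Blk and BCR-ABL groups and hematopoietic stem cells in the vector group. LSK cells are a mixture of stem cells and multipotent progenitors. The constructs were delivered by retrovirus, which inserts at varying sites in the genome. The number of mice per replicate is not given in the labels, so the p-values measure the spread between these samples only. With total RNA from sorted cells, fewer cells of a type and less RNA per cell cannot be told apart.

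All values below are log2 signals after quantile normalization of the 6 arrays, and a difference is the first-named group minus the second on that log2 scale. A gene was called where limma's Benjamini-Hochberg adjusted p, taken over all 19938 genes, was below 0.05. The stem cell markers gave Kit at 10.74 and 10.33 in BCR-ABL-Blk cells, 10.43 and 10.43 in BCR-ABL cells, and 10.71 and 10.92 in vector cells. Ly6a, which encodes Sca-1, was not analysed here. The mean level over 9 LSK markers was 9.78 and 9.85 in BCR-ABL-Blk cells, 9.70 and 9.80 in BCR-ABL cells, and 9.26 and 9.08 in vector cells. Of these 9 markers, 7 were higher and 2, Kit and Flt3, lower in both comparisons with vector. For BCR-ABL-Blk and BCR-ABL cells against vector, Kit was at -0.28 and -0.39 and Flt3 at -0.32 and -0.20. Mecom had the largest differences of the list, at 2.28 and 1.85. Markers of other cells differed between the groups as well. The mean over 8 B cell markers ran from 7.76 to 8.23 in BCR-ABL-Blk cells, from 7.47 to 7.91 in BCR-ABL cells and from 8.99 to 10.64 in vector cells. Of these 8 markers, 8 lay lower in BCR-ABL-Blk cells than in vector cells, and 8 lower in BCR-ABL cells than in vector cells. All 7 monocyte and dendritic cell markers were lower in both comparisons with vector, with means of 7.86 to 7.94 in BCR-ABL-Blk cells, 7.94 to 8.04 in BCR-ABL cells and 8.97 to 9.33 in vector cells. All 5 erythroid markers were lower in each of the 3 comparisons, with means of 8.71 and 8.37 in BCR-ABL-Blk cells, 8.97 and 8.92 in BCR-ABL cells, and 9.90 and 9.43 in vector cells. All 8 neutrophil markers were lower in both comparisons with vector, with means of 9.92 and 9.92 in BCR-ABL-Blk cells, 10.13 and 10.42 in BCR-ABL cells, and 10.24 and 11.01 in vector cells. The neutrophil means of BCR-ABL and vector cells overlapped. Of these 8 markers, 3 had an unadjusted limma p below 0.05 between BCR-ABL and vector cells, and 6 between BCR-ABL-Blk and vector cells. Of all genes 8.64% and 9.42% did, and 0 of the 8 markers were called in either comparison. Of 5 mast cell and basophil markers 4 were higher in both comparisons with vector, with means of 10.28 and 9.07 in BCR-ABL-Blk cells, 10.04 and 10.19 in BCR-ABL cells, and 8.75 and 8.62 in vector cells, and 1 of them, Gzmb, was called in both. The part of these cells in the Hox values was not tested.

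Each cluster also holds microRNA genes between its Hox genes, and their mature forms are printed because microRNAs of one family recur at matching places in different clusters. The sequences are those of RefSeq for the build GRCm38.p6, and the capitals mark the seed, bases 2 to 8, by which a microRNA finds its targets. The Mir10 genes lie in the Hoxb and Hoxd clusters at chr11:96317186-96317208 (+ strand) and chr2:74726074-74726096 (+ strand), and share one seed:
miR-10a-5p: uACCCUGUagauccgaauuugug
miR-10b-5p: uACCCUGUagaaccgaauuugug
The Mir196 genes share another seed. The same mature miR-196a-5p comes from Mir196a-1 in the Hoxb cluster at chr11:96265187-96265208 (+ strand) and from Mir196a-2 in the Hoxc cluster at chr15:102973365-102973386 (+ strand), while Mir196b lies in the Hoxa cluster at chr6:52230129-52230150 (- strand):
miR-196a-5p: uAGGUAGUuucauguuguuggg
miR-196b-5p: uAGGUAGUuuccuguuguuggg

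Promoters of Hox genes are known for a high content of CG dinucleotides, the sites of DNA methylation. RefSeq promoter windows, each 300 bases long and mostly before a start site, were given for 21 of the 37 members, with 23 windows in all. A Hox window held a median of 15 CG dinucleotides, with a range of 4 to 45, against a median of 7 over all 32851 windows of the table. The windows of Hoxa5 and Hoxa6 are printed because these neighbouring genes had the lowest p-values among Hoxa genes between BCR-ABL-Blk and vector cells, and that of Hoxd4 as one with few CG dinucleotides, which are in capitals. They lie at chr6:52204538-52204837 (- strand, 29 CG), chr6:52208623-52208922 (- strand, 26 CG) and chr2:74721728-74722027 (+ strand, 4 CG) of GRCm38.p6:
Hoxa5: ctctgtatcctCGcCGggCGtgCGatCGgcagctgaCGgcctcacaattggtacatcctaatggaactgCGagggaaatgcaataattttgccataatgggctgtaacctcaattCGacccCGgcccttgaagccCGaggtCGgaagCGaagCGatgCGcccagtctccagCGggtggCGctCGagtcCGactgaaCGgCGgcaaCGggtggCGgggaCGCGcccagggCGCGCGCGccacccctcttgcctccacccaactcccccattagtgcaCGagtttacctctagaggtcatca
Hoxa6: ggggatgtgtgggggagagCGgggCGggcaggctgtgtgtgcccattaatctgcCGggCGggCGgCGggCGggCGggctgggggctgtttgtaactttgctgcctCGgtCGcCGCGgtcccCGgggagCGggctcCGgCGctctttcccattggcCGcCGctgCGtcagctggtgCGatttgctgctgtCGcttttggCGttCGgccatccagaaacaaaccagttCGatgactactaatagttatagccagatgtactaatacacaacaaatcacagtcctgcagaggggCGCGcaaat
Hoxd4: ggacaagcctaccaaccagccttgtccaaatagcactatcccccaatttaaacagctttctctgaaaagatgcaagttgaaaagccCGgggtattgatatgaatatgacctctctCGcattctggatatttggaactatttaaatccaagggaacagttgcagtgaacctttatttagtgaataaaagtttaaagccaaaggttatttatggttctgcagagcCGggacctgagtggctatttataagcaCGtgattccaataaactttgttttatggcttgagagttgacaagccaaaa
A search of both strands for TTCNNNGAA, the STAT motif, found it in 1 of the 23 Hox windows (4.35%), that of Hoxd4, and in 8.30% of all windows. The Meis motif TGACAG was in 2 Hox windows (8.70%, against 19.2% of all), those of Hoxa2 and Hoxa3. The Pbx-Hox motif TGATNNAT was in 3 (13%, against 8.85%), those of Hoxa2, Hoxb1 and 1 of the Hoxd11 windows. A match is only a run of letters in the window.

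Hox genes spread slightly less over the arrays than the typical gene. The range over the 6 arrays had a median of 0.298 for the 37 members and 0.337 for all genes, and its highest value among the members was 1.25, for Hoxa5. The mean over the 10 Hoxa genes was 7.26 and 7.31 in BCR-ABL-Blk cells, 7.15 and 7.21 in BCR-ABL cells, and 7.07 and 7.01 in vector cells. On this quantile normalized scale the array means of the Hoxa cluster did not overlap between any of the groups. Without normalization between arrays the median Hoxa difference between BCR-ABL and vector cells was -0.035, against 0.10 with it. The means include Hoxa5, which had the largest difference of the members in each comparison. How often other sets of 10 genes separate the groups in this way was not measured. By their Hoxa means the groups stood in the reverse order of the erythroid marker means given above. They stood in the same order by the means over 4 megakaryocyte markers. Those were 8.38 and 8.47 in BCR-ABL-Blk cells, 8.32 and 8.30 in BCR-ABL cells, and 8.09 and 7.81 in vector cells. The LSK marker means, like the Hoxa means, were lowest in vector cells, and other marker lists differed between the groups as well. A relation of any list to the Hoxa means was not tested. The Hoxb means were 7.11 and 7.12 in BCR-ABL-Blk cells, 7.11 and 7.10 in BCR-ABL cells, and 7.02 and 7.02 in vector cells. The Hoxc means ran from 6.03 to 6.09 in BCR-ABL-Blk cells, 6.02 to 6.03 in BCR-ABL cells and 5.95 to 6.03 in vector cells, without separating the groups. The Hoxd means ran from 6.44 to 6.48 in BCR-ABL-Blk cells, 6.46 to 6.53 in BCR-ABL cells and 6.48 to 6.50 in vector cells. Over all genes the array mean lay between 7.69 and 7.74. Of the members, 8 had a mean above 7.50, the median level of the named genes, of which 5 were Hoxa genes, 3 Hoxb genes and 0 Hoxc or Hoxd genes. That median is not a background level, and signal over background was not measured.

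**Figure D1:**
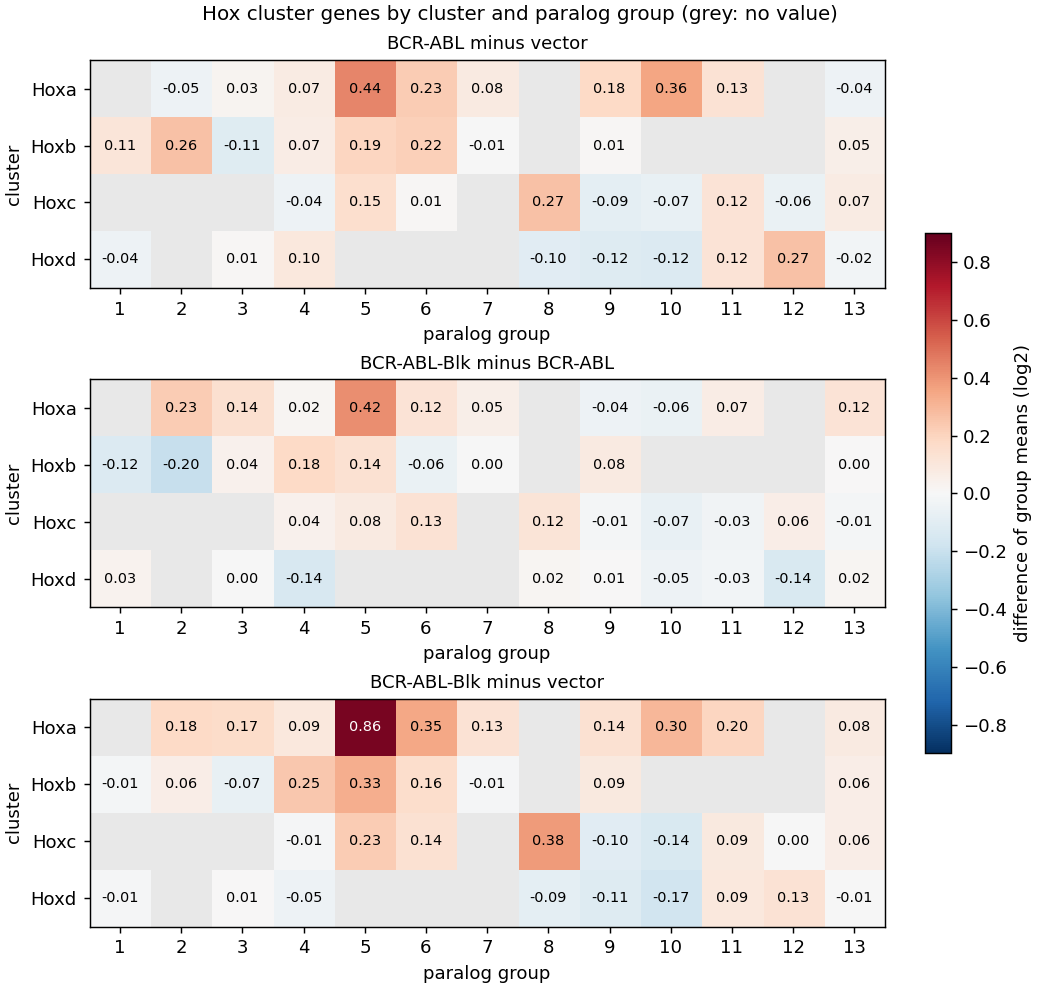
Difference of group means on the log2 scale (colour and printed value) for each measured Hox gene, by cluster (vertical axis) and paralog group (horizontal axis), with 1 panel per comparison and grey where there is no value. Hoxa5 has the highest value in each panel, at 0.44, 0.42 and 0.86, and all 10 Hoxa genes lie above 0 between BCR-ABL-Blk and vector cells, 3 of them by less than their standard error.

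Between BCR-ABL and vector cells no Hox gene was called: 0 of 37 members passed the adjusted threshold, against 0.145% of all genes (29 of 19938). At an unadjusted p below 0.05 there were 2 members, Hoxc8 and Hoxb2, both higher in BCR-ABL cells, which is 5.41% of the members against 8.64% of all genes. The arrays of the groups did not overlap for 12 members, all higher in BCR-ABL cells, or 32.4% against 37.0% of all genes in either direction. The median difference over the members was 0.07, against 0.02 over all genes, and 24 of 37 lay above 0 (64.9%, against 54.3%). By cluster the medians were 0.10 for Hoxa, 0.07 for Hoxb, 0.01 for Hoxc and -0.02 for Hoxd. Without normalization between arrays they were -0.035 for Hoxa, -0.06 for Hoxb, -0.14 for Hoxc and -0.175 for Hoxd, where the median over all genes was -0.11. The 95% intervals of all 37 members stayed within 2-fold in either direction, which was so for 94.6% of all genes. The highest upper bound was that of Hoxa5 at 0.89, and the lowest lower bound that of Hoxb4 at -0.43.

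Between BCR-ABL-Blk and BCR-ABL cells, 0 of 37 Hox members and 0% of all genes were called. At an unadjusted p below 0.05 there were 0 members, against 3.96% of all genes. The arrays did not overlap for 8 members (21.6%, against 34.0% of all genes), of which 6 were higher and 2 lower in BCR-ABL-Blk cells. Of the 6, 5 were Hoxa genes and the other was Hoxc8. The 2 lower ones were Hoxb2 and Hoxd4. The median difference was 0.02 over the members, against -0.01 over all genes, and 0.09 over the Hoxa cluster. The intervals of all 37 again stayed within 2-fold, with bounds from -0.47 (Hoxd12) to 0.87 (Hoxa5).

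Between BCR-ABL-Blk and vector cells, 0 of 37 members were called, against 0.140% of all genes (28 of 19938). Hoxa5, Hoxc8 and Hoxa6 had an unadjusted p below 0.05 and were higher in BCR-ABL-Blk cells, which is 8.11% of the members against 9.42% of all genes. The arrays did not overlap for 15 members, 12 higher and 3 lower in BCR-ABL-Blk cells, or 40.5% against 37.2% of all genes. The 3 lower ones were Hoxb3, Hoxc10 and Hoxd10. The median difference was 0.09 over the members, against 0.00 over all genes, with 0.17 for Hoxa, 0.06 for Hoxb, 0.06 for Hoxc and -0.01 for Hoxd. All 10 Hoxa genes lay above 0, against 6 of 9 Hoxb, 5 of 9 Hoxc and 3 of 9 Hoxd genes. The differences of Hoxa4, Hoxa7 and Hoxa13, and that of Hoxb3, were smaller than their standard errors, and those of Hoxa7 and Hoxa13 went as low as -0.0175 and -0.0058 under the alternatives. The intervals of 36 members stayed within 2-fold; that of Hoxa5 reached 1.31. The comparisons share groups of arrays, so their counts are not independent of one another.

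On all 4 arrays with BCR-ABL, alone or with Blk, 9 of 37 members read above both vector arrays, or 24.3% against 11.3% of all genes. They were Hoxa5, Hoxa6, Hoxa9, Hoxa10, Hoxa11, Hoxb5, Hoxb6, Hoxc8 and Hoxc11. On all 4 arrays, 0 members read below both vector arrays, against 7.85% of all genes. This count was chosen after the values were seen and depends on the scaling of the arrays: without normalization between arrays it was 1 of 37 (2.70%, against 8.30% of all genes). With each array centred on its median it was 7 above (18.9%, against 8.44% of all genes) and 1 below (2.70%, against 6.61%). Without vector replicate 1 it was 12 above (32.4%, against 28.9%) and 6 below (16.2%, against 23.6%). Without vector replicate 2 it was 14 above (37.8%, against 23.1%) and 2 below (5.41%, against 19.6%).

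Hoxa5, a central gene of the Hoxa cluster, had the largest difference among the members in all 3 comparisons. Its signal was 8.23 and 8.02 in BCR-ABL-Blk cells, 7.69 and 7.73 in BCR-ABL cells, and 7.55 and 6.99 in vector cells. The groups did not overlap, with BCR-ABL-Blk highest and vector lowest, and the vector arrays lay further apart than those of the other groups. The difference between BCR-ABL-Blk and vector cells was 0.86 (SE 0.19), or 1.81-fold, with limma adjusted p = 0.178. Between BCR-ABL and vector cells it was 0.44 (SE 0.19, limma adjusted p = 0.588), with 0.72 without vector replicate 1 and 0.16 without vector replicate 2. Between BCR-ABL-Blk and BCR-ABL cells it was 0.42 (SE 0.19, limma adjusted p = 0.999). Hoxa5 between BCR-ABL-Blk and vector cells passed the threshold when vector replicate 1 was left out (1.14, limma adjusted p = 0.0134) and when the arrays were not normalized against each other (1.00, limma adjusted p = 0.0102). Over all alternatives its difference ran from 0.58 to 1.14 and its limma adjusted p from 0.0102 to 0.518.

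Hoxa6 stands next to Hoxa5 and read 6.98 and 7.01 in BCR-ABL-Blk cells, 6.81 and 6.94 in BCR-ABL cells, and 6.53 and 6.77 in vector cells. Its groups also followed one another without overlap, BCR-ABL-Blk highest. The difference between BCR-ABL-Blk and vector cells was 0.35 (SE 0.12, limma adjusted p = 0.377). Hoxa7, on the other side of Hoxa6 and active in MLL-fusion leukemias together with Hoxa9, read 8.39 and 8.69 in BCR-ABL-Blk cells, 8.43 and 8.54 in BCR-ABL cells, and 8.46 and 8.35 in vector cells. Its 3 groups overlapped, and the difference between BCR-ABL-Blk and vector cells was 0.13 with a 95% interval of -0.23 to 0.50.

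Hoxa9 and Hoxa10 are the posterior Hoxa genes best known from leukemia and normal progenitors. Hoxa9 read 8.19 and 8.27 in BCR-ABL-Blk cells, 8.19 and 8.36 in BCR-ABL cells, and 8.15 and 8.04 in vector cells. All 4 arrays with BCR-ABL were above both vector arrays, by a small margin. The difference from vector was 0.14 (95% interval -0.18 to 0.45) for BCR-ABL-Blk cells and 0.18 (-0.14 to 0.50) for BCR-ABL cells. Hoxa10 read 7.57 and 7.90 in BCR-ABL-Blk cells, 7.64 and 7.95 in BCR-ABL cells, and 7.47 and 7.40 in vector cells. In both groups with BCR-ABL the second array was the higher one, and no such array reached down to the vector values. The Hoxa10 difference from vector was 0.30 (SE 0.16, limma adjusted p = 0.654) for BCR-ABL-Blk cells and 0.36 (SE 0.16, limma adjusted p = 0.607) for BCR-ABL cells.

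Nearer the ends of the Hoxa cluster, Hoxa11 read 6.49 and 6.44 in BCR-ABL-Blk cells, 6.43 and 6.36 in BCR-ABL cells, and 6.21 and 6.33 in vector cells. Its groups were in the same order as those of Hoxa5, with a difference of 0.20 (SE 0.094) between BCR-ABL-Blk and vector cells. Hoxa13, at the posterior end and known from limb and gut development, read 6.19 and 6.12 in BCR-ABL-Blk cells, 6.01 and 6.05 in BCR-ABL cells, and 6.16 and 5.99 in vector cells. Hoxa2 and Hoxa3, at the anterior end and known from hindbrain and pharyngeal development, were higher on both BCR-ABL-Blk arrays than on both vector arrays. Hoxa2 read 5.61 and 5.62 in BCR-ABL-Blk cells, 5.47 and 5.31 in BCR-ABL cells, and 5.29 and 5.59 in vector cells. Hoxa3 read 6.71 and 6.63 in BCR-ABL-Blk cells, 6.39 and 6.66 in BCR-ABL cells, and 6.57 and 6.44 in vector cells. Their differences between BCR-ABL-Blk and vector cells were 0.18 (SE 0.12) and 0.17 (SE 0.12). Hoxa4, the remaining Hoxa member, was at 0.09 in that comparison, with overlapping arrays.

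**Figure D2:**
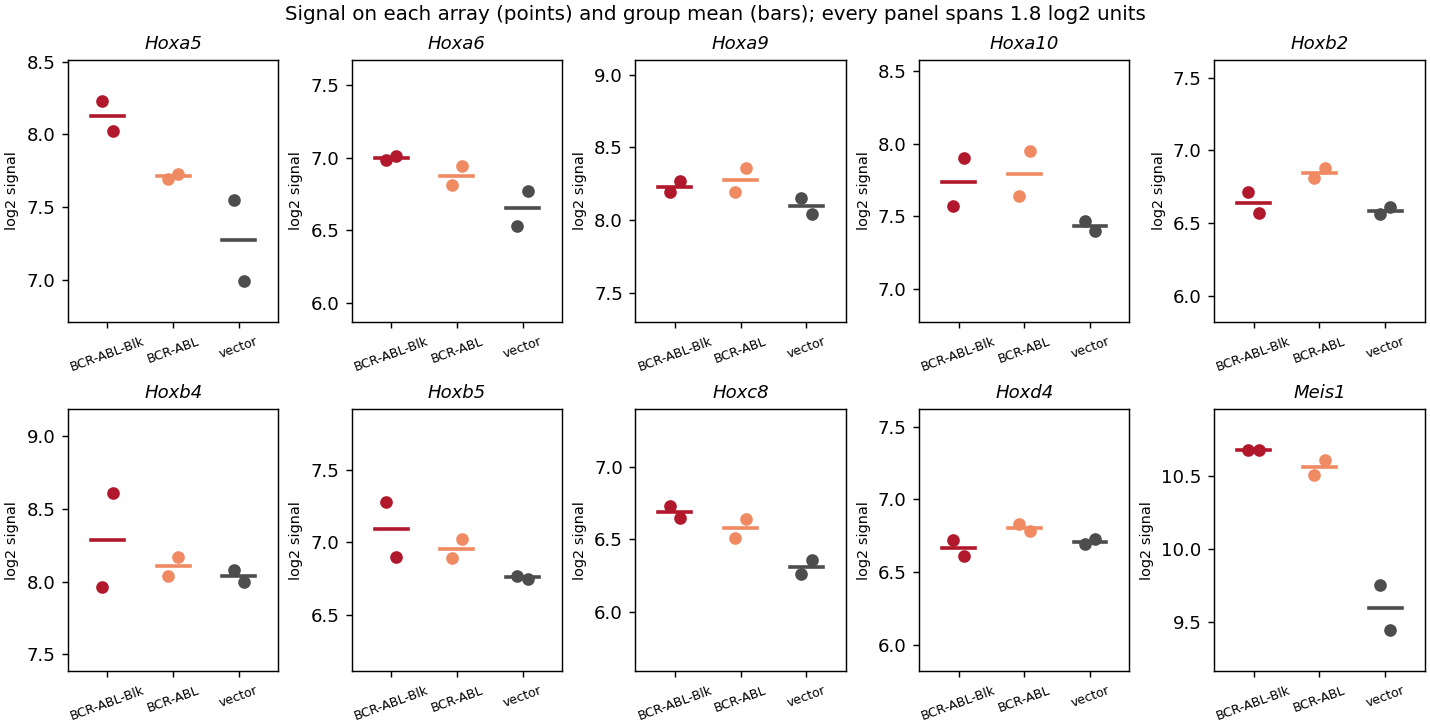
Log2 signal (vertical axis, each panel spanning 1.8 units) on each array (points) with the group mean (bars) for 9 Hox genes and Meis1, in BCR-ABL-Blk, BCR-ABL and vector cells from left to right. Hoxa5 steps down from BCR-ABL-Blk to vector without overlap, Hoxb2 is higher in BCR-ABL cells than in the other groups, and 1 BCR-ABL-Blk array lifts the Hoxb4 mean.

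In the Hoxb cluster, Hoxb4 is the gene whose enforced expression expands blood stem cells. It read 7.96 and 8.61 in BCR-ABL-Blk cells, 8.04 and 8.17 in BCR-ABL cells, and 8.08 and 8.00 in vector cells. A single BCR-ABL-Blk array stood above the rest while the other was the lowest of all 6. The difference between BCR-ABL-Blk and vector cells was 0.25 (SE 0.21, limma adjusted p = 0.815), and without BCR-ABL-Blk replicate 2 it was -0.08. Hoxb5, reported as a marker of long-term stem cells in the mouse, read 7.28 and 6.90 in BCR-ABL-Blk cells, 6.89 and 7.02 in BCR-ABL cells, and 6.77 and 6.75 in vector cells. Both vector arrays were below the other 4, and the difference between BCR-ABL-Blk and vector cells was 0.33 (SE 0.14, limma adjusted p = 0.537). Hoxb3, which acts together with Hoxb4 in stem cell regeneration, read 7.93 and 7.96 in BCR-ABL-Blk cells, 8.02 and 7.80 in BCR-ABL cells, and 7.98 and 8.05 in vector cells. Its difference between BCR-ABL-Blk and vector cells was -0.07 (95% interval -0.38 to 0.24).

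Hoxb2, an anterior gene of the cluster known from the hindbrain, read 6.71 and 6.57 in BCR-ABL-Blk cells, 6.81 and 6.88 in BCR-ABL cells, and 6.56 and 6.61 in vector cells. Both BCR-ABL arrays were above all other arrays, while the BCR-ABL-Blk and vector arrays overlapped. The difference between BCR-ABL and vector cells was 0.26 (SE 0.10, limma adjusted p = 0.516), and between BCR-ABL-Blk and BCR-ABL cells -0.20 (SE 0.10, limma adjusted p = 0.999). Without normalization between arrays the second of these was 0.09. Hoxb6, which widens the pool of myeloid progenitors when enforced, read 5.96 and 5.99 in BCR-ABL-Blk cells, 5.93 and 6.14 in BCR-ABL cells, and 5.89 and 5.75 in vector cells. All 4 arrays with BCR-ABL were above the vector arrays, with differences from vector of 0.16 (SE 0.11) in BCR-ABL-Blk cells and 0.22 (SE 0.11) in BCR-ABL cells. The other Hoxb members, Hoxb1, Hoxb7, Hoxb9 and Hoxb13, had differences between -0.015 and 0.09 in BCR-ABL-Blk against vector cells, with overlapping arrays.

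Hoxc8 was the Hoxc gene with the lowest p-values; it is a central gene best known from the trunk skeleton and motor neurons. It read 6.73 and 6.65 in BCR-ABL-Blk cells, 6.51 and 6.64 in BCR-ABL cells, and 6.26 and 6.36 in vector cells. The groups did not overlap, although the lower BCR-ABL-Blk array and the higher BCR-ABL array lay close together. The difference from vector was 0.38 (SE 0.10, limma adjusted p = 0.262) for BCR-ABL-Blk cells and 0.27 (SE 0.10, limma adjusted p = 0.509) for BCR-ABL cells. Hoxc5 read 6.08 and 6.03 in BCR-ABL-Blk cells, 6.08 and 5.87 in BCR-ABL cells, and 5.74 and 5.90 in vector cells. The vector arrays were below both BCR-ABL-Blk arrays, with a difference of 0.23 (SE 0.11). Hoxc4, known in lymphocytes for its part in antibody class switching, read 5.35 and 5.34 in BCR-ABL-Blk cells, 5.25 and 5.37 in BCR-ABL cells, and 5.33 and 5.38 in vector cells. All 6 values of Hoxc4 lay close together, and its 95% interval between BCR-ABL-Blk and vector cells ran from -0.21 to 0.20.

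In the Hoxd cluster, which patterns limbs and genitalia, the median range over the 6 arrays was 0.28, against 0.30 over all members. Hoxd4 read 6.72 and 6.61 in BCR-ABL-Blk cells, 6.83 and 6.78 in BCR-ABL cells, and 6.69 and 6.73 in vector cells. The BCR-ABL arrays were the highest, and the difference between BCR-ABL-Blk and BCR-ABL cells was -0.14 (SE 0.097, limma adjusted p = 0.999), against 0.155 without normalization between arrays. The 9 Hoxd members together had differences between -0.17 and 0.13 in BCR-ABL-Blk against vector cells, with Hoxd10 lowest and Hoxd12 highest. Between BCR-ABL and vector cells they lay between -0.12 for Hoxd10 and 0.265 for Hoxd12 (SE 0.14, limma adjusted p = 0.673). Both BCR-ABL arrays of Hoxd12 were above both vector arrays.

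**Figure D3:**
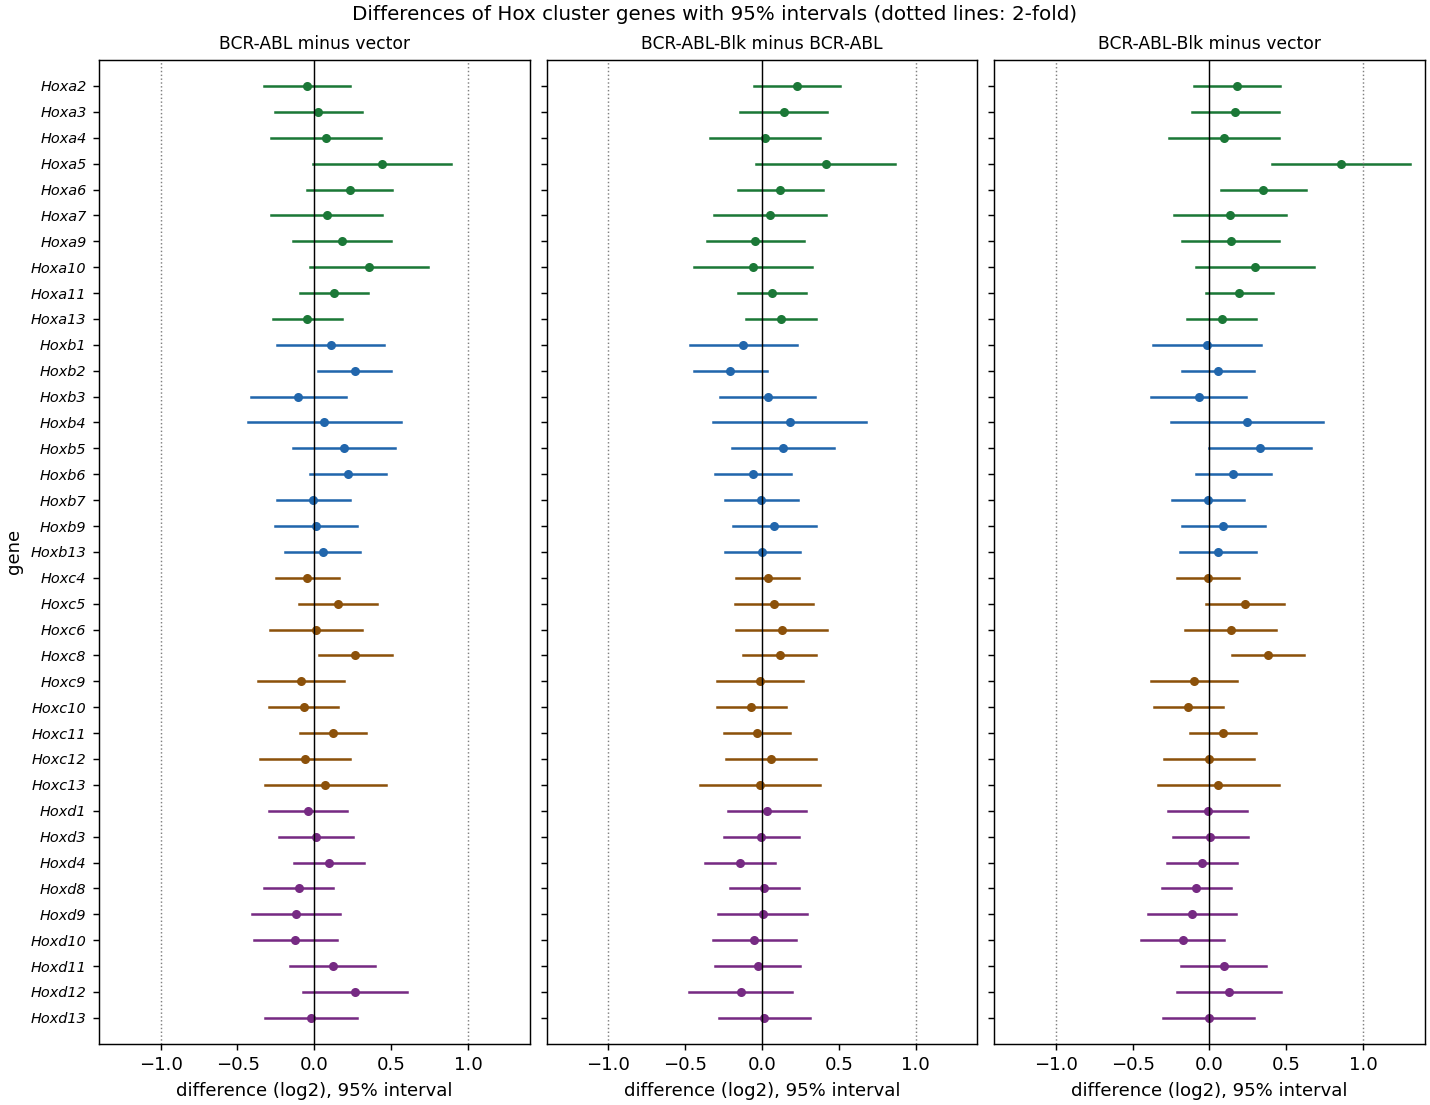
Difference of group means (points, log2 scale, horizontal axis) with its 95% interval (bars) for the 37 Hox genes from Hoxa2 at the top to Hoxd13 at the bottom, coloured by cluster, in 1 panel per comparison; dotted lines mark 2-fold. Only the interval of Hoxa5 between BCR-ABL-Blk and vector cells crosses a dotted line, reaching 1.31.

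By paralog position, the median difference was highest among the genes in the middle of the clusters. The central genes, groups 4 to 8, had a median of 0.15 over 14 genes between BCR-ABL-Blk and vector cells, against 0.01 for the 7 anterior genes of groups 1 to 3 and 0.07 for the 16 posterior genes of groups 9 to 13. Between BCR-ABL and vector cells the medians were 0.09 for central, 0.01 for anterior and 0.03 for posterior genes. All 3 members with an unadjusted p below 0.05 between BCR-ABL-Blk and vector cells were central genes, as are 14 of the 37 members. They were 8.11% of the members, against 9.42% of all genes. Of the 2 such members between BCR-ABL and vector cells, Hoxc8 is central and Hoxb2 anterior. In paralog group 5 all 3 genes (Hoxa5, Hoxb5 and Hoxc5) lay above 0 in both comparisons with vector, with a median of 0.33 for BCR-ABL-Blk and 0.19 for BCR-ABL cells. In paralog group 6 (Hoxa6, Hoxb6 and Hoxc6) all 3 also did, with medians of 0.16 for BCR-ABL-Blk and 0.22 for BCR-ABL cells. In paralog group 11 (Hoxa11, Hoxc11 and Hoxd11) all 3 did as well, with medians of 0.09 for BCR-ABL-Blk and 0.12 for BCR-ABL cells. In paralog group 9, 2 of 4 genes lay above 0 in each of these comparisons. Within paralog group 10 Hoxa10 lay above 0 and Hoxc10 and Hoxd10 below it in both. The other central groups were mixed. In group 4, 2 of 4 genes lay above 0 for BCR-ABL-Blk and 3 of 4 for BCR-ABL cells. In each of groups 7 and 8, 1 of 2 genes did in both comparisons. Groups 1, 2, 3, 12 and 13 each held a gene below 0 in at least 1 comparison with vector. Over all genes 51.1% lay above 0 between BCR-ABL-Blk and vector cells, and 54.3% between BCR-ABL and vector cells. Hoxc6 was at 0.01 (SE 0.13) between BCR-ABL and vector cells. Hoxc11 and Hoxd11 were below their standard errors between BCR-ABL-Blk and vector cells. Without normalization between arrays Hoxa11 (-0.025) and Hoxc5 (-0.005) fell below 0 between BCR-ABL and vector cells. No test was made of one position against another.

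Probe sets for the microRNA and antisense genes of the clusters were read in the fit over all 35557 probe sets, in which 0 of them were called in any comparison. That fit called only 1 of all probe sets in each comparison with vector and 0 between BCR-ABL-Blk and BCR-ABL cells. The absence of calls therefore says little about these genes. A signal on these arrays comes from the hairpin or its host transcript, not from the mature microRNA. Mir10a, of the seed shared with Mir10b, read 3.71 and 3.78 in BCR-ABL-Blk cells, 3.71 and 3.88 in BCR-ABL cells, and 3.77 and 3.73 in vector cells. Mir10b differed by 0.01 (95% interval -0.28 to 0.30) between BCR-ABL-Blk and vector cells. Mir196b, which lies between Hoxa9 and Hoxa10, read 7.47 and 6.97 in BCR-ABL-Blk cells, 7.10 and 6.81 in BCR-ABL cells, and 7.17 and 7.11 in vector cells. The 2 BCR-ABL-Blk arrays of Mir196b lay on either side of the vector arrays. Hottip, the noncoding RNA at the posterior end of the Hoxa cluster known to help keep posterior Hoxa genes active, read 6.44 and 6.52 in BCR-ABL-Blk cells, 6.61 and 6.48 in BCR-ABL cells, and 6.50 and 6.57 in vector cells. A probe set that names both Hoxb8 and Hoxb7 read 6.19 and 6.15 in BCR-ABL-Blk cells, 6.45 and 6.16 in BCR-ABL cells, and 6.17 and 6.19 in vector cells, with a single BCR-ABL array above the rest.

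Among the TALE partners of Hox proteins, Meis1 was higher in BCR-ABL-Blk than in vector cells. It read 10.68 and 10.68 in BCR-ABL-Blk cells, 10.51 and 10.61 in BCR-ABL cells, and 9.75 and 9.44 in vector cells. Both vector arrays were far below the other 4. The difference from vector was 1.08 (SE 0.13, limma adjusted p = 0.049) in BCR-ABL-Blk cells and 0.96 (SE 0.13, limma adjusted p = 0.0565) in BCR-ABL cells. Between BCR-ABL-Blk and BCR-ABL cells it was 0.12 (SE 0.13, limma adjusted p = 0.999). The Meis1 call between BCR-ABL-Blk and vector cells was close to the threshold. Its limma adjusted p was 0.16 with each array centred on its median, 0.0611 with a replicate block, 0.31 with all probe sets tested, 0.15 with only the 4 arrays compared and 0.0651 without the intensity trend. It was 0.15 without BCR-ABL replicate 1, 0.151 without BCR-ABL replicate 2, 0.17 without BCR-ABL-Blk replicate 1 and 0.236 without BCR-ABL-Blk replicate 2. Over all alternatives that limma adjusted p ran from 4.43e-11 to 0.31, and the difference itself stayed between 0.93 and 1.24. The Meis1 difference between BCR-ABL and vector cells ran from 0.81 to 1.12 over them, with limma adjusted p-values from 4.62e-06 to 0.433. Meis1 also belongs to the LSK marker list, whose mean was higher on the 4 arrays with BCR-ABL.

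Of the 9 TALE genes 8 were measured, and the numbers called were 0 between BCR-ABL and vector cells, 0 between BCR-ABL-Blk and BCR-ABL cells and 1, Meis1, between BCR-ABL-Blk and vector cells. Pbx3, a partner of Hoxa9 in leukemia, read 7.72 and 8.95 in BCR-ABL-Blk cells, 7.74 and 7.75 in BCR-ABL cells, and 7.45 and 7.41 in vector cells. Its BCR-ABL-Blk mean rested on 1 array: the difference from BCR-ABL cells was 0.59 (SE 0.34, limma adjusted p = 0.999) with both and -0.03 without BCR-ABL-Blk replicate 2. Meis2 was at 0.25 between BCR-ABL-Blk and vector cells (limma adjusted p = 0.457).

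Of 17 genes of the activating side, 16 were measured and 0 were called in any comparison. Kmt2a, the MLL protein itself, read 10.99 and 11.03 in BCR-ABL-Blk cells, 10.74 and 10.85 in BCR-ABL cells, and 10.98 and 10.91 in vector cells. Its BCR-ABL arrays were the lowest, with a difference of 0.22 between BCR-ABL-Blk and BCR-ABL cells (SE 0.089, limma adjusted p = 0.999). Between BCR-ABL and vector cells Wdr5, a core subunit of MLL complexes, was at 0.51 (limma adjusted p = 0.40), and the MLL paralog Kmt2b was at -0.46 (limma adjusted p = 0.485). Of 21 genes on the polycomb list, 20 were measured and 0 were called in any comparison, to which the same limit applies. That list also holds Kdm6a and Kdm6b, demethylases that act against polycomb. Ezh2, the histone H3 lysine methyltransferase of polycomb, read 11.84 and 11.76 in BCR-ABL-Blk cells, 11.91 and 11.73 in BCR-ABL cells, and 11.98 and 11.75 in vector cells, with overlapping groups. Bmi1, needed for the self-renewal of blood stem cells, differed by -0.14 between BCR-ABL-Blk and vector cells (limma adjusted p = 0.899). Pcgf2, a paralog of Bmi1, was at 0.66 in that comparison (SE 0.25, limma adjusted p = 0.463). Its vector arrays read 7.65 and 6.77, and the difference was 1.1 (limma adjusted p = 0.00928) without vector replicate 1 and 0.22 without vector replicate 2.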

How the data were processed

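Total RNA of sorted cells was hybridised to 6 arrays, 2 per group; groups and replicate numbers came from the sample titles. The authors deposited log2 values that came from RMA in Affymetrix Expression Console 1.1, per the submitters' processing notes. Their RMA options and the build were not given in the sources used here. Their array medians ran from 7.01 to 7.52, so the arrays were quantile normalized first, which changes small shifts of whole groups most.

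The platform annotation listed 23410 of 35557 probe sets, 21789 with 1 symbol and 1621 with several; the highest-mean probe set per symbol left 19938 genes. Limma 3.58.1 in R 4.3.3 (lmFit, eBayes with intensity trend) was fitted to all 6 arrays, with 3 residual degrees of freedom and a prior of 4.40. Two-sided p-values were adjusted by Benjamini-Hochberg over 19938 genes and called below 0.05. The number of arrays limits the precision. The fit was also run on simulated arrays with known changes. That run checks the code and lends no weight to the absence of Hox calls.

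Members and lists were chosen with earlier results of these data known. Per-array values are given for the 6 members with the smallest unadjusted p in each comparison and for Hoxa5, Hoxa7, Hoxa9, Hoxa10, Hoxb2, Hoxb3, Hoxb4, Hoxb5, Hoxb6, Hoxc4 and Hoxd4. Of the lists, Meis1, Pbx3, Kmt2a, Ezh2, Bmi1 and the 4 genes with the smallest p may be named. The count over 4 arrays, the probe sets beside the Hox genes, the promoters and the motifs were chosen after values were seen. Some genes of the lists are not reported here. The alternatives changed the scaling, the level filter, the probe set rule, the variance model and the arrays used, or added a replicate block. Matplotlib 3.10.9 drew the figures.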

Additional observations from a re-analysis of the deposited data

How the results depend on the processing

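Under all 14 alternatives 0 Hox members were called between BCR-ABL and vector cells or between BCR-ABL-Blk and BCR-ABL cells. In BCR-ABL-Blk against vector cells 1 was called, Hoxa5, without normalization between arrays and without vector replicate 1, so the count ran from 0 to 1 as arrays were left out. The number of all genes called moved far more. In the order BCR-ABL against vector, BCR-ABL-Blk against BCR-ABL and BCR-ABL-Blk against vector, it was 401, 79 and 732 without normalization, 1, 0 and 1 with all probe sets tested, 15, 0 and 4 without the intensity trend, and 53, 0 and 71 over genes at or above the median level. With only the 4 arrays compared it was 25, 0 and 4. Leaving out 1 array at a time gave 1 to 507, 0 to 2 and 4 to 560. In such a fit the lone array of a group is assumed to vary like the others.

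The median Hox difference without normalization was -0.08, 0.305 and 0.215 in the same order, where the median over all genes was -0.11, 0.255 and 0.15. It ran from 0.047 to 0.081, -0.0075 to 0.051 and 0.033 to 0.097 as arrays were left out. Over genes at or above the median level, which holds only 8 members, it was 0.14 in BCR-ABL-Blk against vector cells. The count of members above both vector arrays on all other arrays was 1 without normalization and ran from 9 to 14 as arrays were left out, while the share of all genes ran from 13.6% to 28.9%.

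With a replicate block 29, 0 and 23 genes were called and 0 Hox members in each comparison. The deviations of same-numbered arrays correlated at -0.06 (BCR-ABL and vector), 0.08 (BCR-ABL-Blk and vector) and 0.03 (BCR-ABL-Blk and BCR-ABL). These low values cannot decide whether the samples were paired, because same-numbered samples could still share an effect on some genes. The labels do not say whether same-numbered samples were prepared together.

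Of 129 single-gene differences, 53 were below their standard error, and their sign changes are not counted. The others changed sign in 12 cases, and the cause was not tested. Without normalization Hoxa11 was at -0.025 and Hoxc5 at -0.005 between BCR-ABL and vector cells, Hoxb2 at 0.09 and Hoxd4 at 0.155 between BCR-ABL-Blk and BCR-ABL cells, and Dot1l at 0.005 in BCR-ABL-Blk against vector cells. Eed was at -0.07 in that last comparison with the mean of its probe sets. As arrays were left out, Pknox1 ran from -0.087 to 0.68, Mllt3 from -0.047 to 0.73 and Pcgf2 from -0.0175 to 0.87 between BCR-ABL and vector cells, and Pbx3 from -0.027 to 1.20 between BCR-ABL-Blk and BCR-ABL cells. In BCR-ABL-Blk against vector cells Pknox1 ran from -0.011 to 0.75 and Hoxb4 from -0.078 to 0.57.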
